A study of Mus musculus with 42 samples.

Results

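Of 42 mouse brain RNA-seq libraries, 6 held Slc6a3, the gene of the dopamine transporter, at 25 CPM (counts per 1000000 counts of the library) or more. Another 26 libraries held it under 1 CPM, and 10 lay between. The division used Slc6a3 alone, whatever the tissue label. The 6 are called Slc6a3-rich and the 26 Slc6a3-poor, and differences between them are given as descriptions without a test, since the libraries were chosen by a gene of this contrast.

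Slc6a3 takes released dopamine back into the neuron, and in the brain it marks dopamine neurons of the ventral midbrain. These neurons make dopamine from tyrosine with tyrosine hydroxylase (Th) and the decarboxylase Ddc, and load it into vesicles with the transporter Slc18a2. Their cell bodies lie in the substantia nigra and the ventral tegmental area, with serotonin neurons of the raphe, the hypothalamus and the tectum as neighbours, whereas cerebellum and hippocampus are not places where these cell bodies are found.

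The labels give 20 libraries as cerebellum and 22 as hippocampus. The mice received chow (11% fat, the control) or a western diet (42% fat) for 12 weeks. In the NaKtide groups the chow or the western diet carried doxycycline at 300 mg/kg to induce a transgene for NaKtide, a peptide that inhibits signalling through the sodium pump. Each tissue label therefore has the groups control, control NaKtide, western and western NaKtide, with 5 libraries each, or 6 in hippocampus control and hippocampus western NaKtide. The labels do not name the strain, the age, the promoter of the transgene, or whether the other mice carried the transgene or received doxycycline. They also do not say that each library came from a separate mouse, so the p-values reflect no more than variation among the samples at hand, which may be technical. Since the series' design text is about liver and fat, tissue and group were read from each library's own label only.

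Library totals ran from 4669374 to 9521002 counts, and from 5709726 to 6565509 in the 6 Slc6a3-rich libraries. Genes with at least 10 counts numbered 14817 to 15628 in the rich and 15000 to 16345 in the poor libraries, and 13 mitochondrial protein genes took 4.68% to 9.998% and 4.85% to 15.6% of the counts. The closest pairs of all 861 were hippocampus control 5, hippocampus control 6 and cerebellum western NaKtide 5, which all lay between the thresholds. Their genes differed by a median of 0.12 to 0.15 on the log2(CPM + 1) scale, against 0.37 over all pairs, and 11.4% of genes differed between hippocampus control 5 and 6 at a chi-square p under 0.05, against 28.2% and 29.2% in 2 other pairs of 1 group. These 3 and hippocampus western NaKtide 6, a Slc6a3-poor library, also held Xist at 5 CPM or more.

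The windows around the RefSeq start sites of Slc6a3, Th and Slc18a2 are printed because these genes carry the contrast and make and move dopamine. Each window runs from 250 bases before to 20 bases after the start in GRCm38.p6, at chr13:73536497-73536766 on the plus strand for Slc6a3, chr7:142899976-142900245 on the minus strand for Th and chr19:59260628-59260897 on the plus strand for Slc18a2. Capitals mark TGACGTCA, the cAMP response element, which reads the same on both strands.
Slc6a3: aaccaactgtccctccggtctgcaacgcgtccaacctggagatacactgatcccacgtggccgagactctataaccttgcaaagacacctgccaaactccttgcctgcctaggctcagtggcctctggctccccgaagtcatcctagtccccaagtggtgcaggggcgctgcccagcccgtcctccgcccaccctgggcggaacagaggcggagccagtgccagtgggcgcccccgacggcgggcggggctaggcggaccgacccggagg
Th: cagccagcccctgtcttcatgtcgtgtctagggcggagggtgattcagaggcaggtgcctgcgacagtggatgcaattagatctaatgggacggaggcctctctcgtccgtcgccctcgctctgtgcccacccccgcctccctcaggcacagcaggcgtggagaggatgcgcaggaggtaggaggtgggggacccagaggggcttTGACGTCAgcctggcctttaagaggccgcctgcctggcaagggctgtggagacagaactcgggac
Slc18a2: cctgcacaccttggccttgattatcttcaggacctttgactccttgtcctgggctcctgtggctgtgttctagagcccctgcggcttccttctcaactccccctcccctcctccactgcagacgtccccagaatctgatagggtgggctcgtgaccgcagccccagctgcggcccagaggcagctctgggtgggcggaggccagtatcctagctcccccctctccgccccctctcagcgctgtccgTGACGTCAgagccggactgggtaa
The element begins 45 bases before the start of Th and 4 bases before that of Slc18a2, and these letters are not in the window of Slc6a3. It was found in 1.73% of 32851 windows of this length. AAAGGTCA, the site of the Nr4a family, was searched on both strands without a shared match with the first motif, and was found in none of the 3 windows and in 1.42% of all windows. Both motifs were chosen with the sequences in view.

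Slc6a3 stood at 148 CPM in cerebellum control 4 (919 counts), 116 in hippocampus western 5 (687 counts) and 92.8 in cerebellum control NaKtide 1 (541 counts). It stood at 35.6 CPM in hippocampus western NaKtide 2, 34.7 in cerebellum control 2 and 28.0 in cerebellum western 2, the last with 184 counts. In the 26 Slc6a3-poor libraries the counts ran from 0 to 7 with a median of 0.33 CPM, and 4 of them had no count, which allows up to 0.595 CPM (3 counts) in the smallest of the poor libraries. The libraries therefore spanned from no detected transcript to 919 counts at similar depth. Just inside the upper threshold lay cerebellum western 2 at 28.0 CPM and just outside it hippocampus western NaKtide 1 at 23.4 CPM. At the lower threshold, cerebellum control 5 lay inside at 0.948 CPM and hippocampus control NaKtide 4 outside at 1.28 CPM. In bulk tissue, fewer cells of a type and less RNA per cell cannot be told apart.

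The 6 libraries did not come from 1 group. They were 4 of the 20 labelled cerebellum and 2 of the 22 labelled hippocampus, 3 of 21 on each diet, and 2 of 21 with and 4 of 21 without NaKtide. Within the 5 libraries of cerebellum control, Slc6a3 stood at 0.948, 7.79, 14.7, 34.7 and 148 CPM. Cerebellum control NaKtide held 0.132, 0.243, 0.429, 0.482 and 92.8 CPM, and hippocampus western held 0.122, 0.161, 0.260, 0.581 and 116 CPM. In these 2 groups a single library carried 98.6% and 99.0% of the group's summed Slc6a3. Cerebellum western held 0, 0.134, 0.737, 11.0 and 28.0 CPM, and cerebellum western NaKtide 0.111, 0.3796, 2.78, 2.80 and 11.4 CPM. Hippocampus control NaKtide held 0, 0, 0.447, 0.830 and 1.28 CPM. The groups of 6 ran from 0 over a median of 0.475 to 4.20 CPM in hippocampus control, and from 0.315 over 0.625 to 35.6 CPM in hippocampus western NaKtide. All 8 groups overlapped one another.

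**Figure D1:**
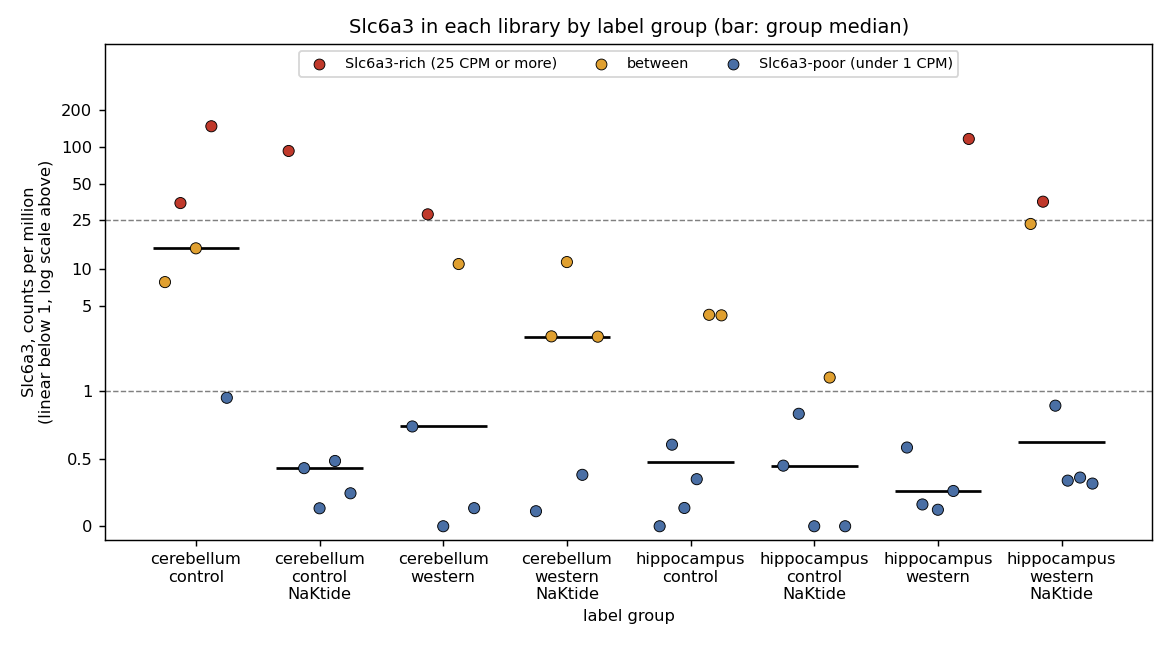
Slc6a3 in CPM (linear below 1, log scale above) in each of the 42 libraries by label group; points are libraries, bars are group medians and dashed lines are 1 and 25 CPM. The 6 libraries above 25 CPM lie in 5 of the 8 groups, and in cerebellum control NaKtide and hippocampus western a single library lies far above the other 4.

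The spread of Slc6a3 within the label groups was among the widest of all genes. Its within-group SD on the log2(CPM + 1) scale was 2.07, rank 10 of 16619 genes with a mean of at least 1 CPM, against 0.35 for the median gene. Th ranked 28 (SD 1.69), Ddc 171 (1.24) and Slc18a2 195 (1.201). Of the variance of Slc6a3, 21.03% lay between the 8 groups, against 29.5% for the median gene, so most of the spread of this gene lay between libraries with the same label.

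The genes that make dopamine were high in the same libraries. Th, the rate-limiting enzyme, stood at 173 CPM in cerebellum control 4, 81.9 in hippocampus western 5, 87.3 in cerebellum control NaKtide 1, 23.3 in hippocampus western NaKtide 2, 83.2 in cerebellum control 2 and 39.6 in cerebellum western 2. In the poor libraries it ran from 0 over a median of 2.33 to 13.98 CPM, the last in cerebellum western 3. The lowest rich library thus lay above the highest poor one, and the medians (82.5 and 2.33 CPM) differed 35.5-fold. Ddc, which turns L-DOPA into dopamine and also makes serotonin, ran from 23.5 to 107 CPM (median 53.2) in the rich and from 2.52 to 15.4 CPM (median 5.82) in the poor libraries, 9.13-fold apart with no overlap. Gch1, the first enzyme of the tetrahydrobiopterin cofactor of Th, had medians of 6.23 and 1.21 CPM, and 5 of the 6 lay above all poor libraries. Aldh1a1, an aldehyde dehydrogenase of ventral tier dopamine neurons whose locus also holds an antisense gene, had medians of 181 and 49.6 CPM but overlapped, with 1 of 6 above all poor libraries.

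Vesicle and membrane transporters followed. Slc18a2, the vesicular monoamine transporter, stood at 31.1, 38.5, 24.2, 7.87, 52.9 and 17.2 CPM in the 6 libraries taken from the highest to the lowest Slc6a3. The poor libraries held 0.719 to 6.54 CPM (median 2.22), so the classes did not overlap, 12.4-fold apart in the median. Slc10a4, an orphan transporter of monoamine and cholinergic vesicles, had medians of 25.7 and 2.17 CPM, with 4 of 6 above all poor libraries.

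Transcription factors of midbrain dopamine neurons were low in level but ordered the same way. Lmx1b ran from 0.984 to 13.1 CPM in the rich and from 0 to 0.599 in the poor libraries. Pitx3 ran from 0.457 to 2.25 CPM against 0 to 0.321, Foxa1 from 0.656 to 5.15 against 0 to 0.445, and Foxa2 from 0.164 to 2.98 against 0 to 0.161, the last a matter of single counts at the lower end. En1 had a median of 7.504 CPM in the rich libraries and was at 0 in 16 poor ones, with 5 of 6 above all poor libraries, and Lmx1a had 2 of 6. Lmx1b and En1 were highest in cerebellum control 2 (13.1 and 28.2 CPM), which held the serotonin gene Tph2 at 275 CPM. Chosen by its values, cerebellum western NaKtide 2 held them at 5.21 and 4.83 CPM, with Slc6a3 at 2.80 and Tph2 at 106 CPM. Whether serotonin neurons add to these 2 genes was not tested. Nr4a2, a nuclear receptor that dopamine neurons share with cortical and hippocampal neurons, went the other way, with medians of 11.8 and 18.3 CPM. Otx2, which marks part of the ventral tegmental area and also the choroid plexus and tectum, ranged 61.9-fold among the 6, from 0.609 CPM in cerebellum western 2 to 37.7 in hippocampus western NaKtide 2.

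Receptors and other markers were mixed. Chrna6, a nicotinic receptor subunit of dopamine terminals, ran from 5.33 to 22.7 CPM in the rich and from 0 to 4.83 in the poor libraries. Ret, the receptor for glial cell line-derived neurotrophic factor, ran from 16.7 to 57.5 CPM in the rich libraries (median 46.9) against a poor median of 4.25 CPM, with 4 of 6 above all poor libraries. Chrnb3 had medians of 4.77 and 0.730 CPM and overlapped in all 6. Gucy2c, a guanylate cyclase of these neurons, had 5 of 6 above, Sncg 3, Anxa1 and Klhl1 2 each, and the neurotensin receptor Ntsr1 1. Drd2, the autoreceptor that striatal neurons also make, had medians of 18.98 and 12.1 CPM and reached 207 CPM in a poor library, so none of the 6 stood above.

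Of the 23 markers other than Slc6a3, 22 had a higher median in the rich libraries, Nr4a2 being the exception, and 8 had no overlap with the poor ones (Th, Ddc, Slc18a2, Lmx1b, Pitx3, Foxa1, Foxa2 and Chrna6). In some of the 8 the lowest rich and highest poor library lay within a few counts of each other. These include Pitx3 (0.457 and 0.321 CPM), Foxa1 (0.656 and 0.445 CPM), Foxa2 (0.164 and 0.161 CPM) and Lmx1b (0.984 and 0.599 CPM). Their separation is not resolved. Slc18a2 (7.87 and 6.54 CPM) and Chrna6 (5.33 and 4.83 CPM) were also only narrowly apart. Over all 16618 other genes with a mean of at least 1 CPM, which 18 of the 23 markers passed and 5 of the 8 without overlap, 0.102% had all rich above all poor libraries and 0.012% all below. Over the 33561 genes with at least 1 count, which all 23 passed, these shares were 0.0656% and 0.00596%. Per library, 17 of the 23 markers lay above every poor library in cerebellum control 4, 15 in cerebellum control NaKtide 1, 14 each in hippocampus western 5 and cerebellum control 2, 12 in hippocampus western NaKtide 2 and 11 in cerebellum western 2. In the same order, 6.44%, 5.41%, 3.74%, 8.02%, 8.03% and 2.96% of the 33561 genes lay above every poor library, and since the libraries were chosen by Slc6a3 nothing is read from the difference. Genes of midbrain dopamine neurons such as Th, Ddc, Slc18a2 and Chrna6 were thus detected together in 6 libraries whose labels say cerebellum or hippocampus.

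**Figure D2:**
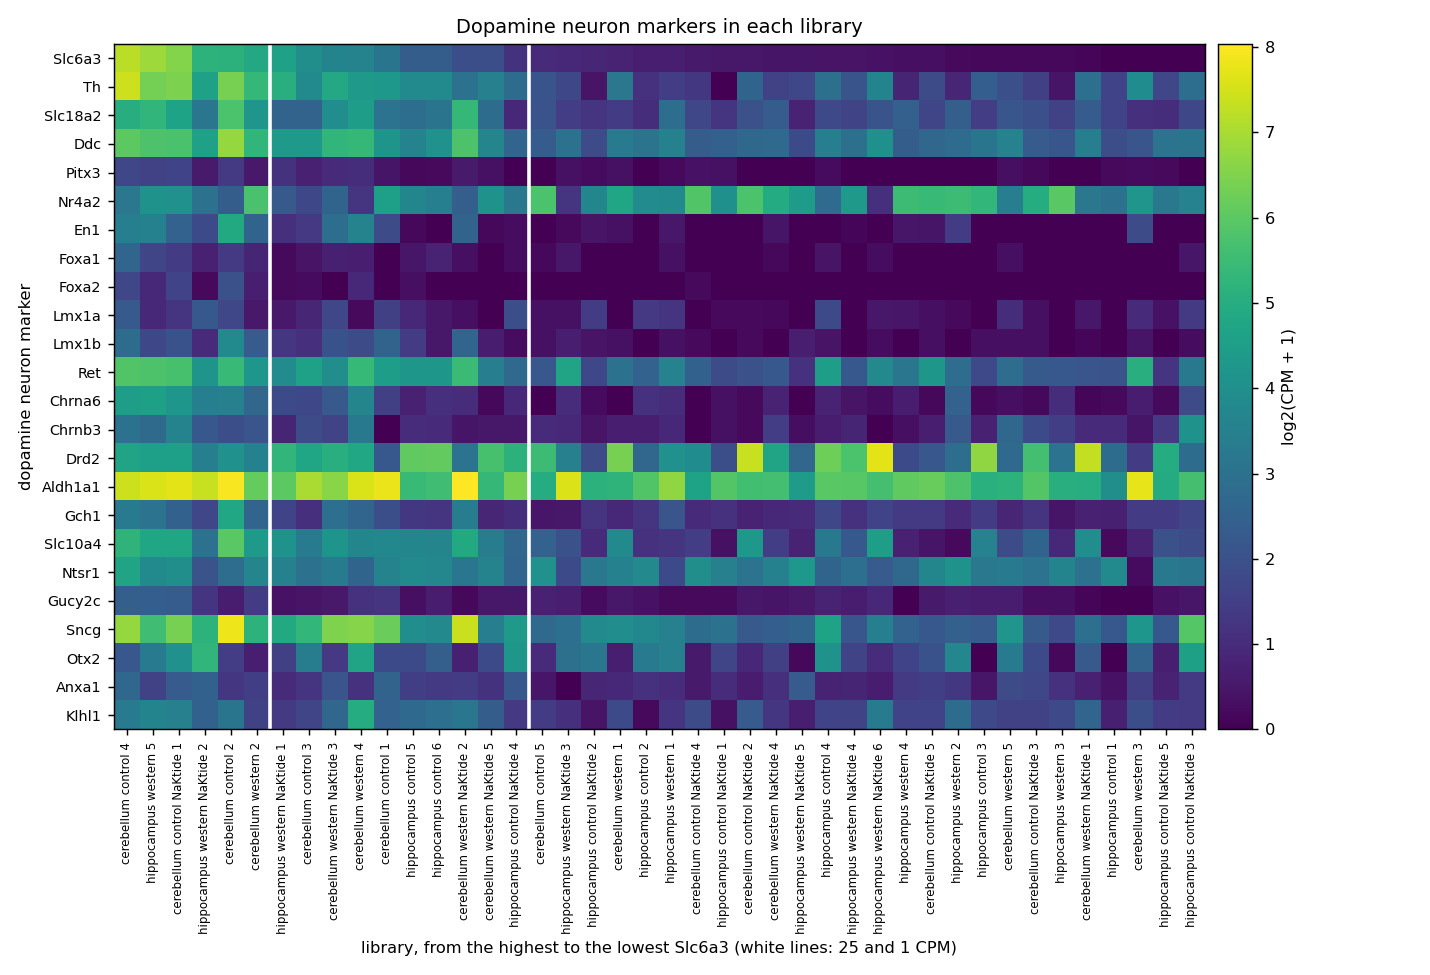
Level (log2(CPM + 1), colour) of 24 dopamine neuron markers in 42 libraries ordered by Slc6a3, with white lines at 25 and 1 CPM. Th, Ddc, Slc18a2, Ret and Chrna6 are bright in the 6 libraries on the left, whereas Nr4a2 and Drd2 do not follow this order.

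The other genes of the dopamine pathway (cofactor recycling, breakdown and receptors, 13 genes) did not separate the classes in full. None lay above all poor libraries in all 6. Only 0.0656% of the 33561 genes with at least 1 count did so, and nothing is read from this. A higher median was found for 9. For counts of higher medians, here and in the other lists, no share over all genes is given. Qdpr, which regenerates the cofactor, had medians of 399 and 244 CPM, and Aldh2, which oxidises dopamine's aldehyde, of 122 and 104 CPM. Pcbd1, which recycles the same cofactor, had 5 of 6 above all poor libraries. Chosen after their values were seen, the receptor Drd1 and its effector Ppp1r1b, which mark striatal neurons, had lower medians, at 3.59 against 10.7 CPM and 89.7 against 262 CPM.

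Th and Slc6a3 were not in a fixed proportion. Of the counts of both genes together, Th took 53.9% (95% exact Clopper-Pearson interval 51.6% to 56.1%) in cerebellum control 4, 41.3% (38.4% to 44.2%) in hippocampus western 5 and 48.5% (45.4% to 51.5%) in cerebellum control NaKtide 1. It took 39.6% (34.5% to 44.8%) in hippocampus western NaKtide 2, 58.6% (53.8% to 63.2%) in cerebellum western 2 and 70.6% (67.0% to 74.0%) in cerebellum control 2. These intervals cover counting error only, and that of cerebellum control 2 lies above the other 5. Per length, in the deposited FPKM, Th was 3.51 times Slc6a3 in cerebellum control 2 and 0.957 to 2.07 times in the other 5. Cerebellum control 2 also held 109 FPKM of Tph2, the serotonin-making enzyme, 35.8 of the serotonin transporter Slc6a4 and 8.97 of Dbh, which turns dopamine into noradrenaline, against at most 21.1, 7.63 and 0.684 in the other 5. Whether these other monoamine neurons bear on the proportion was not tested.

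The genes most like Slc6a3 over the 42 libraries, by Pearson r of log2(CPM + 1) among 13943 named genes, were led by Th (0.87), Chrna6 (0.87), Ddc (0.85), the non-coding RNA BC039966 (0.84), Lmx1b (0.81), Slc18a2 (0.81) and En1 (0.80). These values describe libraries that share tissue content and are not tested, and 6 of the 20 nearest genes were on the dopamine marker list. Without the 6 rich libraries, r over the other 36 was 0.71 for Th, 0.60 for Chrna6, 0.72 for Ddc and 0.77 for Lmx1b. Next came Krt1, Resp18, Ndn, Rmst, Pcbd1, P2rx5, Ctxn2, Heyl, Epb41l4a, Cd83, Zim1, Gpr179 and Gata3, with r from 0.75 to 0.79. Resp18, a protein of the secretory pathway, had medians of 211 and 86.8 CPM. Ndn, an imprinted gene high in the hypothalamus and brainstem, had 527 and 291 CPM, and Pcbd1 24.8 and 7.39 CPM. Gata3, a factor of serotonin and tectal GABA neurons, had a median of 13.5 CPM in the rich libraries and reached 6.60 CPM in a poor one. The list thus held genes of dopamine neurons beside genes of other midbrain and brainstem cells.

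**Figure D3:**
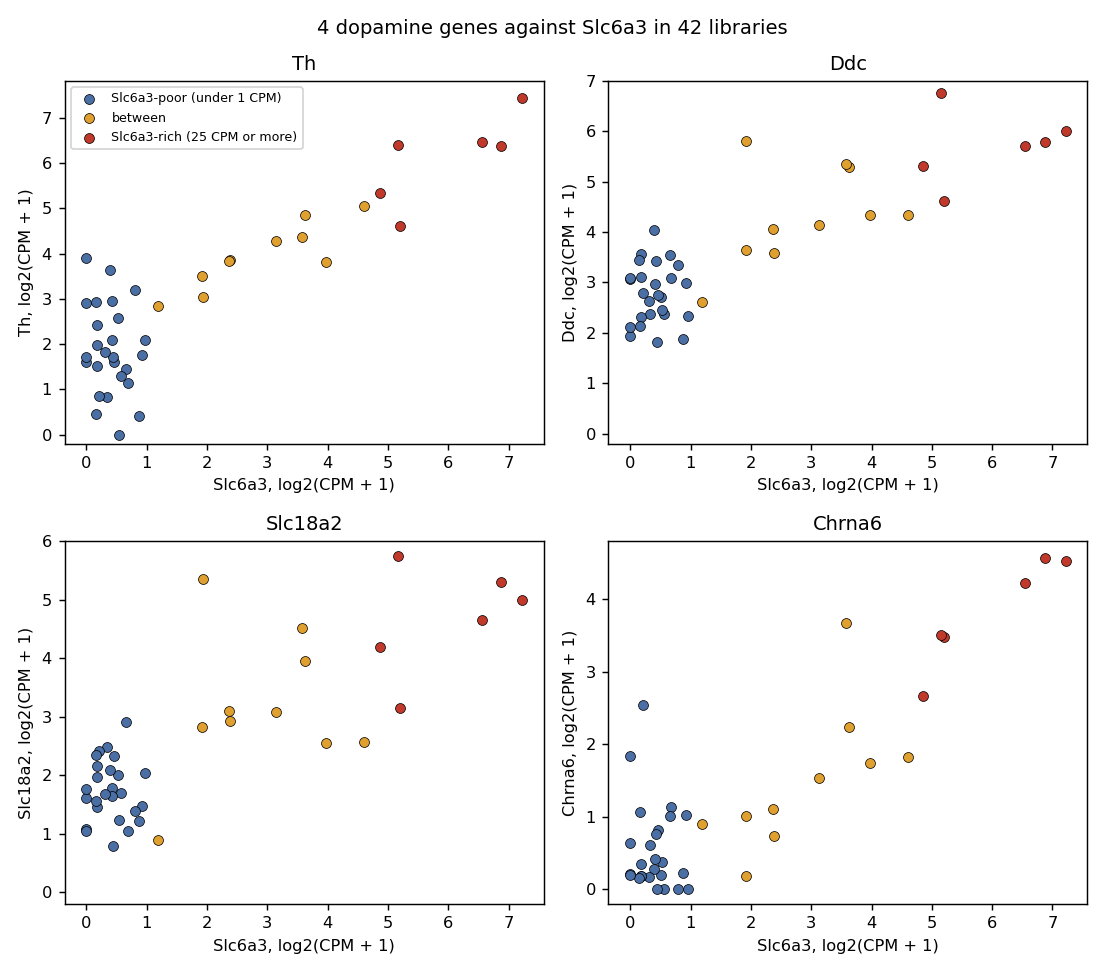
Th, Ddc, Slc18a2 and Chrna6 against Slc6a3, each as log2(CPM + 1), with 1 point per library coloured by class. In all 4 panels the 6 rich libraries lie above the 26 poor ones, and in the panel of Slc18a2 cerebellum western NaKtide 2 lies apart with 39.9 CPM of Slc18a2 at 2.80 CPM of Slc6a3.

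The 5 genes most opposite to Slc6a3 were Cmya5 (r = -0.75), Arhgef2 (-0.72), Osbp2 (-0.72), Usp2 (-0.72) and Zfyve28 (-0.71). Their medians were 0.365 to 0.597 times those of the poor libraries. Chosen after their values were seen, Gabrd, a GABA receptor subunit of forebrain and cerebellar granule neurons (2.98 to 29.3 against 38.2 to 221 CPM), and Ldlrad4, which overlaps Fam210a, were the 2 genes with all 6 below. Of those with all 6 above outside the marker list, also chosen by their values, Rln3, a peptide of the nucleus incertus and periaqueductal grey, ran from 1.07 to 12.3 against 0 to 0.373 CPM. P2rx5 ran from 4.72 to 8.58 against 0.143 to 2.97 CPM, and Dnajc12, a co-chaperone of the aromatic amino acid hydroxylases, from 15.7 to 34.9 against 7.30 to 15.3 CPM.

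The 6 libraries did not share one neighbourhood of other cells. Single-library genes in this paragraph were chosen after their values were seen. Cerebellum control 2 stood out for serotonin neurons, with Tph2 at 275 and Slc6a4 at 142 CPM, for Dbh of noradrenaline neurons at 21.2 CPM and for the glycine transporter Slc6a5 of the hindbrain at 44.5 CPM. Cerebellum western 2 held Tph2 at 65.2 and Slc6a4 at 37.2 CPM, beside the pyramidal cell genes Neurod6 (109 CPM) and Fibcd1 (166 CPM). In the other 4 rich libraries Tph2 stood at 0.328 to 4.41 CPM, and Slc6a4 at 0 to 2.54. Cerebellum control 4 held the hypothalamic peptides Hcrt at 354 and Pmch at 286 CPM, whereas the next highest of the 6, hippocampus western 5, held 13.9 and 15.3 CPM.

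Markers of the tectum and thalamus lay in several of the 6. Gabra6, Pax7 and the dentate granule markers other than C1ql2 and Stxbp6 are also named by their values. Hippocampus western 5 and cerebellum control NaKtide 1 held the thalamic factor Tcf7l2 at 81.0 and 59.7 CPM, the glutamate transporter Slc17a6 at 119 and 105 CPM, and C1ql2 of dentate granule cells at 126 and 122 CPM. Cerebellum control 4, the library with the hypothalamic peptides, also held Tcf7l2 at 50.9 and Slc17a6 at 112 CPM. The rest of the 6 held 3.05 to 33.8 CPM of Tcf7l2 and 19.3 to 75.5 CPM of Slc17a6. Hippocampus western NaKtide 2 held Ttr of the choroid plexus at 4966 CPM, against 21.02 to 151 in the other 5, with Pax7 of the tectum at 9.35 and Otx2 at 37.7 CPM. Gabra6, which defines cerebellar granule cells, stood at 0 to 1.23 CPM in the 6, although 4 of them carry the cerebellum label. Only 3 of the 20 libraries with that label reached 10 CPM. C1ql2 stood at 19.97 CPM or more in all 6, with a median of 81.2 against 6.57 CPM in the poor libraries, which overlapped (0.755 to 150 CPM). Of the 9 dentate granule markers, 7 had a higher median in the rich libraries. Against the poor median, Lct stood at 5.27, Tdo2 at 3.98, Prox1 at 2.15, Sema5a at 1.47 and Stxbp6 at 1.06 times. Dsp had medians of 7.80 and 0.404 CPM. Pdzd2 and Dgkh were lower, at 0.637 and 0.658 times the poor median. The 9 together took medians of 247 and 172 CPM.

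**Figure D4:**
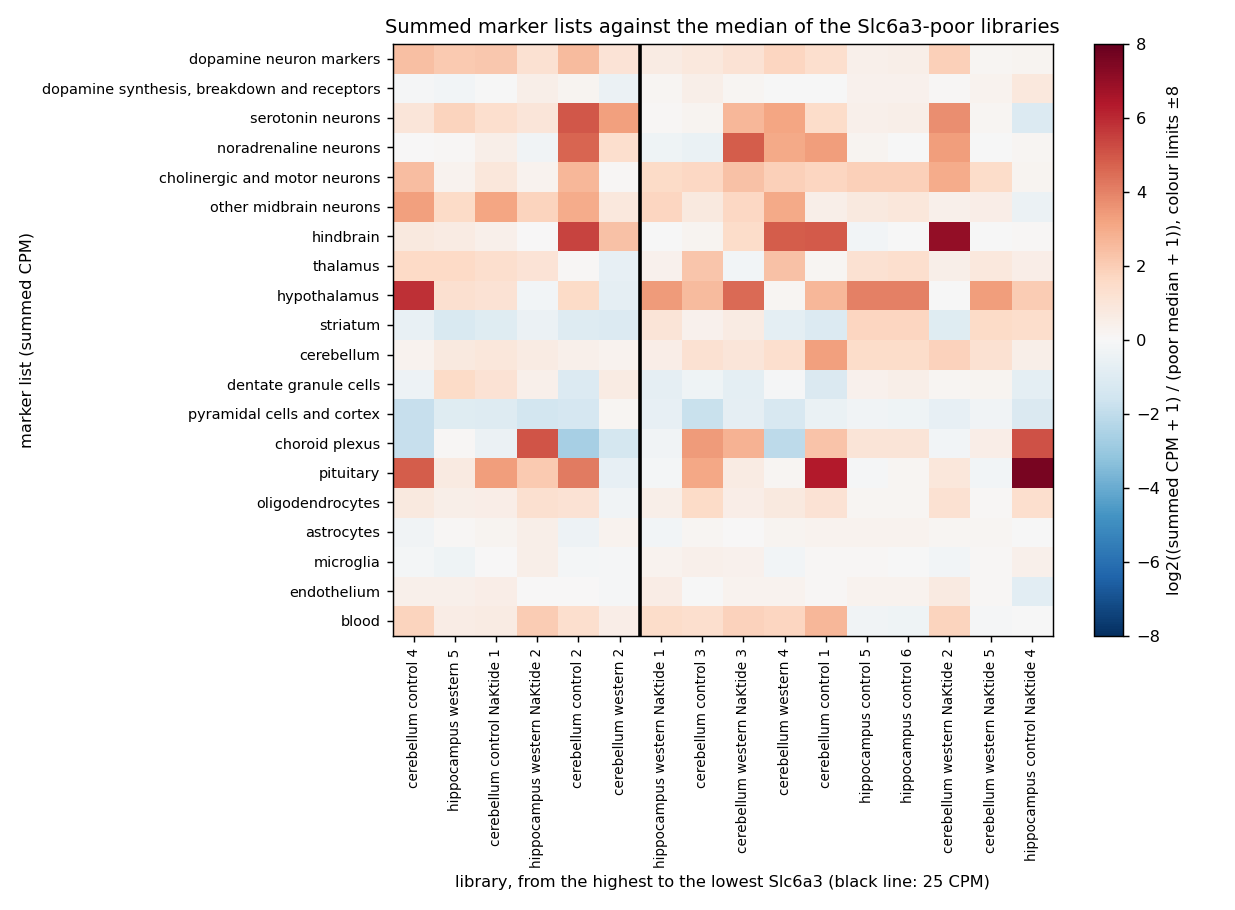
Summed CPM of 20 marker lists in the 16 libraries at 1 CPM or more of Slc6a3, as log2 of the sum plus 1 over the median of the poor libraries plus 1, ordered by Slc6a3 with a black line at 25 CPM. The dopamine row is red in all 6 rich libraries, and the striatum row is blue in all 6. Among the 6, the serotonin and hindbrain rows are deepest red in cerebellum control 2, the hypothalamus row in cerebellum control 4 and the choroid plexus row in hippocampus western NaKtide 2.

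Summed over whole lists, the 24 dopamine markers, Slc6a3 included, took 369.5 to 984 CPM in the rich and 58.0 to 352 CPM in the poor libraries. The 10 striatal markers took 255 to 427 CPM in the rich against a median of 587 in the poor, and Penk and Ppp1r1b of that list were at 0.507 and 0.342 times the poor medians. The 9 markers of other midbrain neurons took a median of 99.4 against 17.0 CPM, led by Cartpt (62.0 and 8.62 CPM) and Tal1 (9.08 and 1.46 CPM). The 10 thalamic markers took 281 against 118 CPM, and the 6 serotonin markers 46.9 against 15.0 CPM. The 6 pituitary markers took 18.96 against 1.73 CPM, led by the hormones Gh (13.7 and 0.663 CPM) and Prl, a larger ratio than that of the dopamine list (751 and 173 CPM), but a poor library reached 438 CPM. The 10 hypothalamic markers took 36.7 against 15.0 CPM, and the 10 cerebellar markers 60.0 against 40.6. The 10 markers of pyramidal cells and cortex went the other way in sum, at 257 against 576 CPM, though 2 of them had a higher median. Wfs1 of that list stood at 57.3 and 127 CPM, and Fibcd1, higher in the rich libraries, at 42.8 and 19.7 CPM. The 6 markers of choroid plexus also took less in the rich libraries, at 85.9 against 155 CPM. Some sums differed less in their medians, with 2229 against 2009 CPM for 7 astrocyte genes (led by Slc1a2 and Gfap), 333 against 364 for 8 microglial genes (C1qb and C1qa) and 223 against 191 for 6 endothelial genes (Cldn5 and Flt1). The astrocyte genes did not move together, with Slc1a2 at 0.764 and Gfap at 1.57 times the poor median. Agt of that list, chosen by its values, had medians of 293 and 39.8 CPM, with 5 of 6 above all poor libraries. The 8 oligodendrocyte genes took 11133 against 7014 CPM, led by Mbp and Mobp, and 5 blood genes 1755 against 864.5 CPM, led by Hba-a1 and Hba-a2, near-identical copies whose reads the counting may have split. Except for the dopamine markers, the ranges of the 2 classes overlapped in all these lists. The dopamine sums hold Slc6a3 itself, which chose the libraries. It took 28.0 of the 369.5 CPM in cerebellum western 2 and 0.315 of the 352 CPM in hippocampus western NaKtide 6, a poor library. Without Slc6a3 the dopamine sums of the 2 classes overlapped too. The part of any list in the level of Slc6a3 was not tested.

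Among themselves the 6 libraries were about as far apart as any libraries. The median gene differed by 0.34 on the log2(CPM + 1) scale over their 15 pairs (0.23 to 0.57), by 0.34 over 90 pairs of the same label group and by 0.37 over all 861 pairs. The nearest library was another rich one for cerebellum control NaKtide 1 (hippocampus western 5, 0.23) and cerebellum control 2 (cerebellum control 4, 0.24). For hippocampus western 5 the nearest was hippocampus western 1, a Slc6a3-poor library of its own group, at 0.23.

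The 10 libraries between the thresholds formed neither class, so the way other genes went with Slc6a3 in them could be tested. They include the closest pairs of the series (hippocampus control 5, hippocampus control 6 and cerebellum western NaKtide 5), each counted as a separate library. In an edgeR quasi-likelihood fit with the tissue label as a term, 0 of 16730 genes passed a Benjamini-Hochberg adjusted p of 0.05 (0% called). At an unadjusted p under 0.05, 3.82% of genes had a positive and 2.32% a negative slope, and DESeq2 called 21 genes. Of the 19 dopamine markers fitted, 12 slopes were positive and 2 had an unadjusted p under 0.05. Th stood at 32.4 CPM in hippocampus western NaKtide 1, the library with the most Slc6a3 of the 10, and at 6.21 CPM in hippocampus control NaKtide 4, the one with the least. Its slope was 0.66 (SE 0.12) per log2 unit of Slc6a3 with an adjusted p of 0.654 by edgeR and 0.00274 by DESeq2. Chrna6 had a slope of 0.99 (SE 0.37, adjusted p = 0.799 by edgeR), Ddc of 0.23 (SE 0.21, adjusted p = 0.903) and Slc18a2 of -0.13 (SE 0.32, adjusted p = 0.984).

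Slc18a2 and Ddc lay off the order of Slc6a3 in a library with serotonin markers, and the cause was not tested. Cerebellum western NaKtide 2 held Slc6a3 at 2.80, Th at 7.24, Slc18a2 at 39.9 and Ddc at 54.8 CPM, beside Tph2 at 106, Slc6a4 at 55.5 and Slc6a5 at 115 CPM. Without this library the slope of Slc18a2 was 0.39 and that of Ddc 0.57, and neither was called (edgeR adjusted p = 0.887 and 0.695). Cerebellum western 4, at 11.0 CPM of Slc6a3, held Tph2 at 50.6 CPM and 15 of the 23 other dopamine markers above every poor library, as many as cerebellum control NaKtide 1, where 7.39% of the 33561 genes did so. With Tph2 as a further covariate, chosen after seeing the data, the slopes were 0.65 for Th, -0.02 for Slc18a2 and 0.32 for Ddc.

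The study's own comparisons ask what the tissue label, the diet and NaKtide do to expression in the brain, and the 6 libraries enter them as members of their groups. In 1 edgeR fit of all 42 libraries with the 8 groups, 8 of 17088 genes (0.0468%) were called between the tissue labels, 45 (0.263%) between diets and 0 (0%) between NaKtide and none. DESeq2 called 85 and 669 genes in the first 2 of these contrasts. For NaKtide, 984 genes were higher and 629 lower at an unadjusted p under 0.05, and DESeq2 also called 0. The 8 genes of the label contrast were all lower in hippocampus and, chosen after their values were seen, included Tph2 (log2 fold change -3.89, SE 0.76, adjusted p = 0.0417), Slc6a5 (-5.02, SE 0.89, adjusted p = 0.0291) and the cerebellar gene Fat2 (-5.54, SE 1.11, adjusted p = 0.0452). Without the 6 Slc6a3-rich libraries 0 genes were called for the tissue label and 0 for diet. That fit has fewer samples and leaves them out by Slc6a3 itself, so the cause was not tested. For the tissue label, 0 genes were also called without cerebellum control NaKtide 5 alone, a Slc6a3-poor library.

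None of the 20 dopamine markers fitted was called in any of the 3 contrasts. DESeq2 called 1 of 24, Slc18a2 between the tissue labels (log2 fold change -1.61, adjusted p = 0.0450). Between the labels, 18 of the 20 fold changes were negative with a median of -0.99, against -0.01 over all genes. At an unadjusted p under 0.05, 11 of the 20 were lower in hippocampus, and 0 higher, against 7.09% and 5.74% of all genes. Many of the markers are high in the same libraries, so the 20 are not independent and the difference from all genes was not tested. Between diets the markers had a median of 0.11 (all genes 0.03) with 1 higher and 0 lower at an unadjusted p under 0.05 (10.4% and 11% of all genes). For NaKtide the median was -0.52 (all genes 0.01) with 1 lower and 0 higher at that p (3.68% and 5.76% of all genes).

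Slc6a3 itself averaged 8.45 ± 24.5 CPM (SD, n = 22, with TMM factors) in libraries labelled hippocampus and 18.1 ± 38.4 (SD, n = 20) in those labelled cerebellum. The log2 fold change was -1.67 (SE 0.86, edgeR adjusted p = 0.413), and its 95% interval by a normal approximation of the coefficient ran from -3.36 to 0.02. Between western and control diet the means were 10.9 ± 25.1 and 15.1 ± 37.9 CPM (SD, n = 21 each), while the fitted log2 fold change was 0.80 (SE 0.87, edgeR adjusted p = 0.630, interval -0.90 to 2.50), in which each of the 8 groups weighs the same on the log scale. Between NaKtide and none they were 8.01 ± 19.7 and 18.1 ± 40.5 CPM (SD, n = 21 each), with a log2 fold change of -1.30 (SE 0.87, edgeR adjusted p = 0.604, interval -3.00 to 0.41). In each contrast the SD exceeded the mean, and no contrast passed the threshold.

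These values moved with single rich libraries. Without hippocampus western 5, the fold change of Slc6a3 was -0.78 for diet, 0.29 for NaKtide and -3.24 for the tissue label. Without cerebellum control NaKtide 1, it was 2.23 for diet, -2.72 for NaKtide and -0.24 for the tissue label. The diet and NaKtide values thus changed sign with 1 library, and all of these had an adjusted p above 0.05. Th followed, at -0.92 for diet and 0.12 for NaKtide without hippocampus western 5. The number of genes called between diets was 0 without cerebellum control 4 or cerebellum control NaKtide 1, 7 without cerebellum control 2 or cerebellum western 2, 79 without hippocampus western NaKtide 2 and 803 without hippocampus western 5. It moved by over 1.5 times for 35 of the 42 libraries left out, rich or not, up to 2018 without cerebellum western NaKtide 3, a library between the thresholds. None of the 45 diet genes was among the 25 genes most like or most opposite to Slc6a3, and 2 were on any marker list. Since 0.263% of all 17088 genes were called, 25 genes would seldom hold one, and nothing is read from either count.

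**Figure D5:**
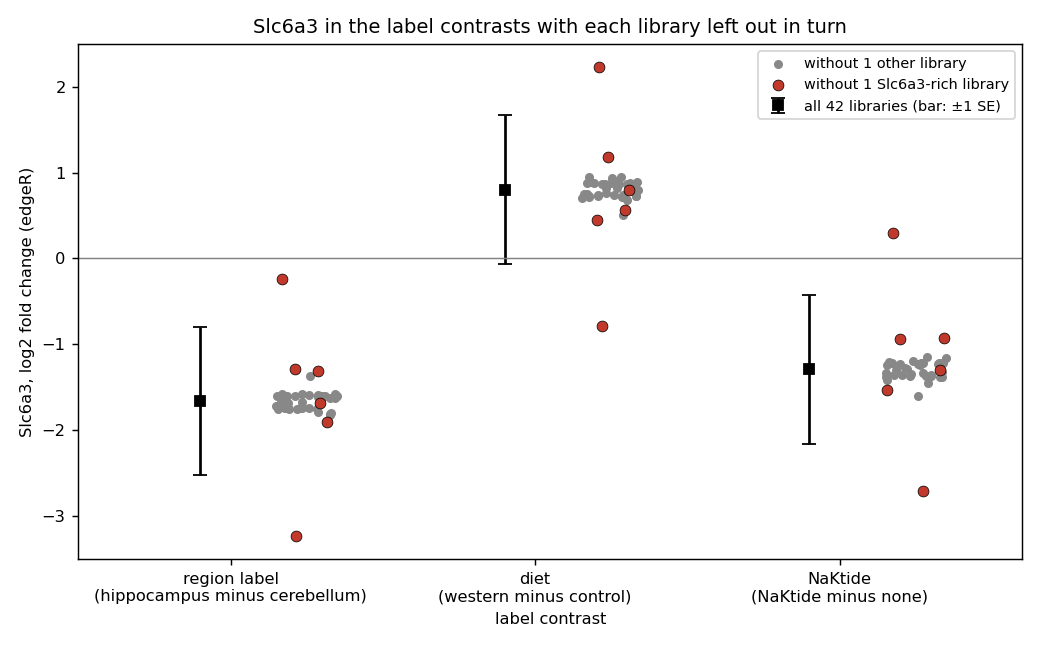
Log2 fold change of Slc6a3 (edgeR) for the tissue label, diet and NaKtide contrasts: squares with bars are all 42 libraries ± 1 SE, and points leave out 1 library each, red where it is Slc6a3-rich. The red points run from -3.24 to -0.24, from -0.78 to 2.23 and from -2.72 to 0.29, and the lowest and highest point of each contrast is red.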

How the data were processed

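The authors deposited raw counts per Ensembl gene for 42 libraries, normalized counts (a signal: per the values, the raw count over 1 size factor per library) and FPKM values. Trimmomatic 0.38, HISAT2 2.1.0, DESeq2 1.20.0 and GRCm38 are named per the submitters' processing notes, and the kit was stranded per the labels' protocols. A counter or annotation was not given in the sources used here. Of 54232 genes, 54079 had a symbol and 54165 coordinates (GENCODE M21).

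CPM used library totals of 4669374 to 9521002 counts. Label contrasts were fitted with edgeR 4.0.16 (quasi-likelihood, TMM, low-count filter, 8 groups, Benjamini-Hochberg threshold 0.05) in R 4.3.3, checked on simulated data, with DESeq2 1.42.0 as an alternative. Ranges, likeness and intervals used Python 3.11.15, pandas 2.3.3 and SciPy 1.17.1. The normalized counts served as an alternative scaling of the 2 thresholds. The libraries, marker lists and tests were chosen with earlier results of these data known. Named genes were the dopamine markers, the 20 most and 5 least like Slc6a3 (mean of at least 1 CPM), and members of the other lists, mainly the 2 highest of a list, of which not every one is printed. Others are stated as chosen by their values. Promoter windows came from RefSeq (GRCm38.p6).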

Additional observations from a re-analysis of the deposited data

Results flagged for a closer look

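Slc6a3, Th, Slc18a2 and Ddc were each looked at in the 8 label groups, 32 checks in all, for a library whose gap to the nearest other exceeded Dixon's 95% critical value. Chance alone marks about 1 in 20 groups if values are normally distributed, which skewed CPM values need not be, and 10 of the 32 were marked. The checks are not independent, since these genes vary together and Slc6a3 chose the libraries, so the number of marks is a description. Slc6a3 stood at 148 CPM in cerebellum control 4, where the other 4 libraries reached 34.7 CPM. It stood at 11.4 CPM in cerebellum western NaKtide 3, where the others reached 2.80 CPM. The other 8 marks fell on 2 libraries. In cerebellum control NaKtide 1, Slc6a3 stood at 92.8 CPM (others up to 0.482), Th at 87.3 (up to 5.00), Slc18a2 at 24.2 (up to 3.00) and Ddc at 51.6 (up to 5.58). In hippocampus western 5, Slc6a3 stood at 116 CPM (others up to 0.581), Th at 81.9 (up to 1.74), Slc18a2 at 38.5 (up to 6.54) and Ddc at 54.7 (up to 10.6).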

How the results depend on the processing

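The thresholds of 25 and 1 CPM gave 7 rich libraries with TMM factors (hippocampus western NaKtide 1 at 25.4 CPM) and 6 with the deposited normalized counts, and 25 poor ones with either. Genes with all rich above all poor libraries numbered 22 at a minimum of 1 count, 12 with TMM factors, and 18 to 62 without 1 rich library, the most without cerebellum western 2. Genes called between the tissue labels numbered 85 with DESeq2, 2 with hippocampus control 5 and 6 summed, 0 without the rich libraries, 0 without all libraries at 1 CPM or more of Slc6a3, 43 without the 4 libraries with Xist, and 0 to 13 without 1 library each. Genes called between diets numbered 669 with DESeq2, 0 without a low-count filter, 87 with the pair summed, 0 without the rich libraries, 0 without all libraries at 1 CPM or more, and 0 to 2018 without 1 library each. For NaKtide every setting run gave 0. The slope gave 21 genes with DESeq2, 1 with linear CPM, 1 without hippocampus control 6 and cerebellum western NaKtide 5, and 0 to 1 without 1 library each. The causes were not tested, the fits without libraries have fewer samples, and those without rich libraries or without libraries at 1 CPM or more leave out samples by Slc6a3 itself. Leaving out the Xist libraries, that pair and adding Tph2 were chosen after seeing the data.

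With the replicate number as a block, 0 genes were called between the tissue labels, 10 between diets and 0 for NaKtide, and the slope of Slc18a2 was 0.91. Over 141 same-numbered pairs the median correlation of deviations was -0.02 (-0.60 to 0.61), 47 exceeded 0.1, and 8 libraries correlated best with their own number. The labels do not say whether a number marks 1 mouse. These correlations cannot decide it, since the libraries also differ in regional markers.

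Of the values for Slc6a3, Th, Slc18a2 and Ddc, 638 kept their direction and side of the threshold, 14 turned and 2 newly passed it. Without all libraries at 1 CPM or more, Ddc was 0.16 for the tissue label and 0.10 for NaKtide, and Th 0.17 for NaKtide; without the rich libraries Th was 0.12 for NaKtide. Leaving out 1 library each gave Slc6a3 -0.78 to 2.23 for diet and -2.72 to 0.29 for NaKtide, Th -0.92 to 0.82 for diet and -1.61 to 0.12 for NaKtide, and the slope of Slc18a2 -0.38 to 0.39 (0.02 without cerebellum control 3). Th for diet was -0.03 without cerebellum western NaKtide 3, and -0.0045 and -0.0018 without cerebellum western 2 and hippocampus western NaKtide 1. Under 3 counts, levels below about 0.6 CPM are not resolved.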
